A study of Homo sapiens with 4 samples.

Results

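The unfolded protein and ATF4 response genes are a set of 31 genes read on Illumina bead arrays of MCFDCIS, an established basal-subtype line of breast cancer cells. In 2 arrays the RNA came from cells transfected for 72 hours with Slug siRNA (titled siSNAI2), and in the other 2 from cells transfected for the same time with control siRNA (titled siOTP NT). Slug, the product of SNAI2, is a zinc finger repressor of epithelial genes. All 4 arrays lay on 1 chip, and the 2 arrays of a group are named as biological replicates, with no statement that they came from separate days or stocks. P-values therefore measure the spread between these arrays, which may be technical in part. The design rests on a single cell line, and the siRNAs' number and sequences were not given in the sources used. RNA was taken from whole cultures, in which fewer cells of a type and less RNA per cell cannot be told apart.

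Members were the probes whose gene symbol in the platform annotation is on the list, with a detection p under 0.05 on at least 2 arrays, and each gene was read through its kept probe with the highest mean. This left 28 of the 31 genes, out of 11200 genes kept in all. They comprise 9 chaperones and folding factors of the endoplasmic reticulum (ER), 10 genes of amino acid metabolism, transport and tRNA charging that ATF4 is known to drive, and 9 stress regulators and effectors. The other 3 listed genes are without values in the results. HERPUD1 and CARS1 were not analysed here, and CHAC1 did not exceed background on the arrays. At the detection limit, SLC7A11 was kept with detection on 2 arrays (lowest detection p 0.0052), and the lowest detection p of CHAC1 was 0.383.

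When unfolded proteins build up in the ER, the sensors IRE1, PERK and ATF6 start the unfolded protein response. IRE1 splices XBP1 mRNA and ATF6 is cut to an active factor, and both programmes raise ER chaperones and degradation factors. PERK phosphorylates the translation factor eIF2, a step shared with GCN2, the sensor of uncharged tRNA, and this favours translation of ATF4. ATF4 then raises genes of amino acid synthesis and import and, with prolonged stress, regulators such as CHOP (DDIT3) and TRIB3. Much of this control, including XBP1 splicing, ATF4 translation and eIF2 phosphorylation, is not measured by an array of mRNA levels.

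ER chaperone genes are known for the ER stress response element (ERSE), written as CCAAT, 9 free bases and CCACG, which NF-Y binds on the left and ATF6 or XBP1 on the right. Windows of 250 bases before to 50 bases after each RefSeq gene start (GRCh38.p14) were available for 24 of the 28 members, and were searched for exact matches on both strands. ERSE was present in 5 of the 37 windows of members, those of HSPA5, HSP90B1, CALR, PDIA6 and XBP1. It was present in 0.0769% of all 35116 windows. All windows here means those of 27305 genes, detected on these arrays or not, whereas every member is a detected gene. As ER chaperone genes are known for ERSE, its larger share among member windows was foreseeable and is not a result of these arrays. The related ERSE-II, written as ATTGG, 1 free base and CCACG, was present for SDF2L1 and in 0.0541% of all windows. The windows of DNAJB9, DNAJC3, DNAJB11 and PDIA4 held no exact match of either. The matches with 8 bases on each side follow for 5 genes, 5′ to 3′ on the strand of the gene, with the element in capitals. Where the element lies on the opposite strand it reads CGTGG first.
HSP90B1, first match (chr12:103930208-103930242, plus strand): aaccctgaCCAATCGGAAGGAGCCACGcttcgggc
HSP90B1, second match (chr12:103930313-103930347, plus strand): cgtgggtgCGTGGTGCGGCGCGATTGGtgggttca
CALR (chr19:12938376-12938410, plus strand): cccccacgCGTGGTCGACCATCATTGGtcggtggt
PDIA6 (chr2:10812845-10812879, minus strand): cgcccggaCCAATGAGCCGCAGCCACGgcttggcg
XBP1 (chr22:28800595-28800629, minus strand): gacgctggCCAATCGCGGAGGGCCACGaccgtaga
SDF2L1 (chr22:21642106-21642132, plus strand): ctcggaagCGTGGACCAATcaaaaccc

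The 250 bases before the start are given for the 4 ER genes whose arrays differed most between groups, 2 of them lower and 2 higher with Slug siRNA. Capitals mark ERSE in HSPA5, and in all 4 the letters CCACG or their reverse complement CGTGG, the right part of ERSE, which are present in 59.5% of the member windows and 38.1% of all windows.
HSPA5 (chr9:125241344-125241593, minus strand): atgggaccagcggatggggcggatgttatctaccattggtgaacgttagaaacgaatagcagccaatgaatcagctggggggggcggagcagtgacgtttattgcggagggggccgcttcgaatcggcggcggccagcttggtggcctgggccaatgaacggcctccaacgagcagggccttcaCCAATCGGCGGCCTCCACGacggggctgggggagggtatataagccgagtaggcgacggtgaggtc
PDIA4 (chr7:149028491-149028740, minus strand): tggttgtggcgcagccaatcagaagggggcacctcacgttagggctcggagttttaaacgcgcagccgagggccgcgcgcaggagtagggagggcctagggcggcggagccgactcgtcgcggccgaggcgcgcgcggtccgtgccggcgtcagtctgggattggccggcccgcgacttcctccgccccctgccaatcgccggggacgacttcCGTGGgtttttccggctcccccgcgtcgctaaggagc
DNAJB9 (chr7:108569624-108569873, plus strand): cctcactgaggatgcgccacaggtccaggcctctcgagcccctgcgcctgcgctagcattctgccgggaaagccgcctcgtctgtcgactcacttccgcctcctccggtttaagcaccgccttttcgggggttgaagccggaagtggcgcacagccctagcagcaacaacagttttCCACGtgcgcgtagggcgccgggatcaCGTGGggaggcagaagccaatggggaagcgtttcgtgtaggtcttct
DNAJC3 (chr13:95676889-95677138, plus strand): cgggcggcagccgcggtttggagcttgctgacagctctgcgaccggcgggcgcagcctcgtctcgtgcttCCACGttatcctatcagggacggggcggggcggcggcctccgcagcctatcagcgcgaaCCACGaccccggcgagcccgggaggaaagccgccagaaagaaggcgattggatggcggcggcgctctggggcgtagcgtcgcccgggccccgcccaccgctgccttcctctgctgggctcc

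The ERSE of HSPA5 begins 66 bases before the gene start. PDIA4 has 2 annotated starts, and the upstream one is shown. A match describes the letters only and says nothing about binding in these cells.

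SNAI2, the target of the siRNA, had log2 intensities of 8.57 and 8.51 with Slug siRNA, against 8.95 and 9.01 with control siRNA. It was 1.35-fold lower with Slug siRNA (log2 fold change -0.44), which did not pass the threshold over all genes (limma adjusted p = 0.316). Its second probe gave a log2 fold change of -0.37 (limma adjusted p = 0.429). Epithelial markers were above background on all 4 arrays for 8 of 8 measured genes, KRT5, KRT8, EPCAM and CDH1 among them. Of 12 markers of fibroblasts, endothelium and blood cells, 8 were not above background on any array, including COL1A2, VWF, CDH5 and PTPRC, and PECAM1 and CD68 were detected on all 4. The summed linear level of the 4 such markers kept was 606 and 419 with Slug siRNA, against 815 and 667 with control siRNA. That of the 8 epithelial markers was 26853 and 27635 with Slug siRNA, against 21079 and 20956 with control siRNA. The epithelial sum was higher and the other sum lower on both Slug siRNA arrays. Of the 4 genes in the latter, COL1A1 and CD79A were detected on only 2 arrays. PECAM1 was the brightest of them, with log2 signals of 7.83 to 9.14 over the arrays. By gene, 1 of these 4 had a positive log2 fold change and 3 a negative one. Of the 8 epithelial markers, 6 were positive and 2 negative. The part of either sum in the results was not tested.

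The question asked of these genes is whether knockdown of Slug changes the mRNA of ER chaperones, apart from the amino acid genes driven by ATF4. No member passed the threshold of an adjusted p under 0.05 in limma, adjusted over all 19446 kept probes, which 0.116% of the 11200 genes passed (0.0357% higher and 0.0804% lower). The lowest adjusted p among members was 0.0928 (VLDLR). At an unadjusted limma p under 0.05, 2 of 28 members were higher (7.14%, against 6.18% of all genes) and 5 were lower (17.9%, against 6.87% of all genes). The 2 higher genes were the ER co-chaperones DNAJB9 and DNAJC3. The 5 lower genes were the ER folding genes HSPA5 and PDIA4, the serine and glycine pathway genes PHGDH and SHMT2, and VLDLR. The groups did not overlap for 12 members (42.9%, against 45.1% of all genes). Both Slug siRNA arrays lay above both control arrays for 2 members and below both for 10, or 7.14% and 35.7% of the members, against 23.6% and 21.5% of all genes. With 2 arrays against 2, the smallest p that an exact permutation test of 1 gene allows is 0.333.

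**Figure D1:**
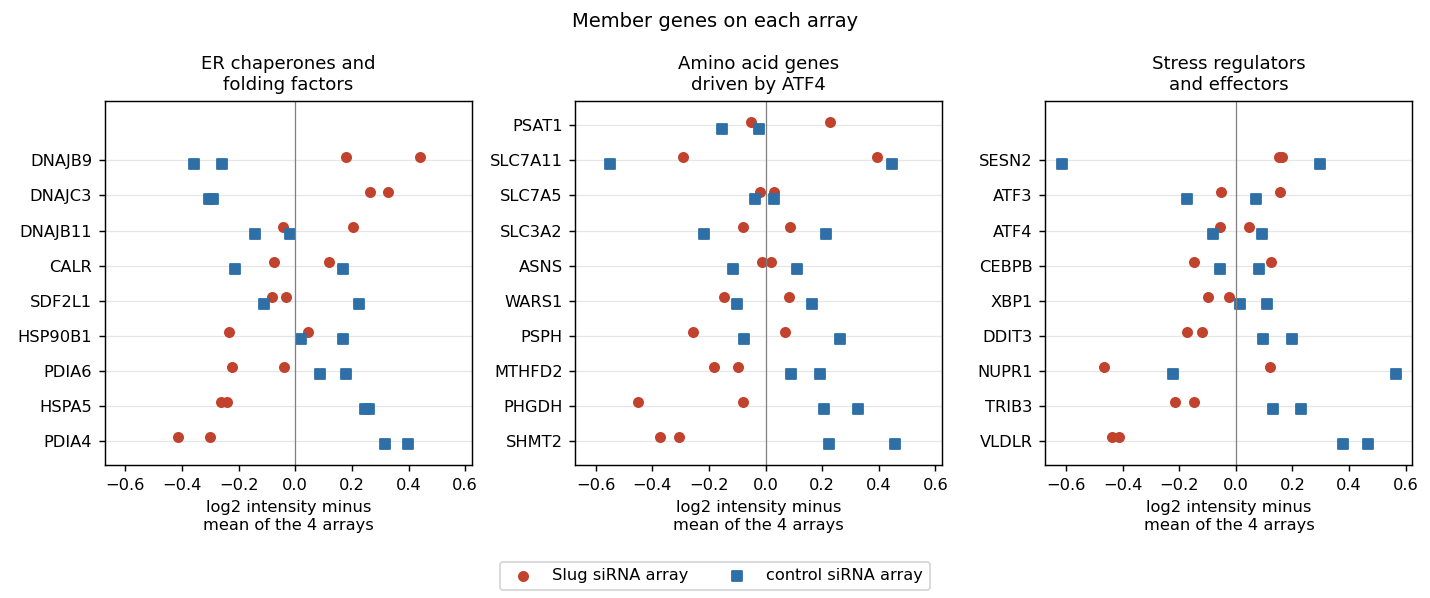
Log2 intensity of each of the 28 members on each array, minus the mean of the gene over the 4 arrays, with Slug siRNA arrays as circles and control siRNA arrays as squares, in 3 panels by role. The circles lie fully to the right of the squares for DNAJB9 and DNAJC3 and fully to the left for 10 genes, among them PDIA4, HSPA5, SHMT2, PHGDH and VLDLR.

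The ER chaperones and folding factors stood on both sides of 0. Their median log2 fold change was -0.11 over 9 genes (range -0.71 to 0.62), against 0.01 over all 11200 genes, with 4 positive and 5 negative. HSPA5 encodes BiP, the central Hsp70 chaperone of the ER and the usual readout of the unfolded protein response. Its log2 intensity was 9.09 and 9.12 with Slug siRNA, against 9.62 and 9.60 with control siRNA. The replicates of a group differed by 0.02 in size and the groups did not overlap. BiP mRNA was 1.42-fold lower with Slug siRNA (log2 fold change -0.51, SE 0.16, 95% interval -0.87 to -0.14, limma adjusted p = 0.262). Values this low or lower were seen in 577 of the 11200 genes, HSPA5 included.

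PDIA4, a protein disulfide isomerase also called ERp72, had the lowest value of this group. It read 6.59 and 6.70 with Slug siRNA, against 7.32 and 7.40 with control siRNA, with no overlap, a 1.64-fold lower mean (log2 fold change -0.71, SE 0.16, limma adjusted p = 0.141). The related isomerase PDIA6 read 10.09 and 10.28 with Slug siRNA, against 10.50 and 10.41 with control siRNA. Its groups did not overlap either, but its log2 fold change of -0.27 had a 95% interval of -0.66 to 0.12. HSP90B1, the ER Hsp90 known as GRP94, read 12.87 and 12.59 with Slug siRNA, against 12.99 and 12.85 with control siRNA. Its groups overlapped, with a log2 fold change of -0.19 (95% interval -0.61 to 0.23).

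Both ER genes whose Slug siRNA arrays lay above the control siRNA arrays encode J-domain proteins, which hand substrates to BiP. DNAJB9 (ERdj4), which also holds back IRE1, read 7.53 and 7.79 with Slug siRNA, against 6.99 and 7.09 with control siRNA. Its mean was 1.54-fold higher (log2 fold change 0.62, SE 0.17, limma adjusted p = 0.222). DNAJC3 (p58IPK), which is also known as an inhibitor of PERK and related kinases, read 7.32 and 7.38 with Slug siRNA, against 6.76 and 6.75 with control siRNA. That is 1.51-fold higher with Slug siRNA (log2 fold change 0.59, SE 0.16, limma adjusted p = 0.199). In neither gene did the groups overlap.

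The remaining members of the group had overlapping arrays. DNAJB11 (ERdj3), another J-domain protein, read 12.00 and 12.25 with Slug siRNA, against 11.90 and 12.02 with control siRNA, a log2 fold change of 0.16. SDF2L1, a partner of ERdj3 in the BiP complex, stood at -0.11, and the lectin chaperone gene CALR at 0.04. The 95% intervals were -0.24 to 0.57 for DNAJB11, -0.54 to 0.31 for SDF2L1 and -0.41 to 0.50 for CALR, and each spans 0. Leaving out 1 array in turn gave log2 fold changes of -0.29 to 0.05 for SDF2L1 and -0.14 to 0.23 for CALR.

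**Figure D2:**
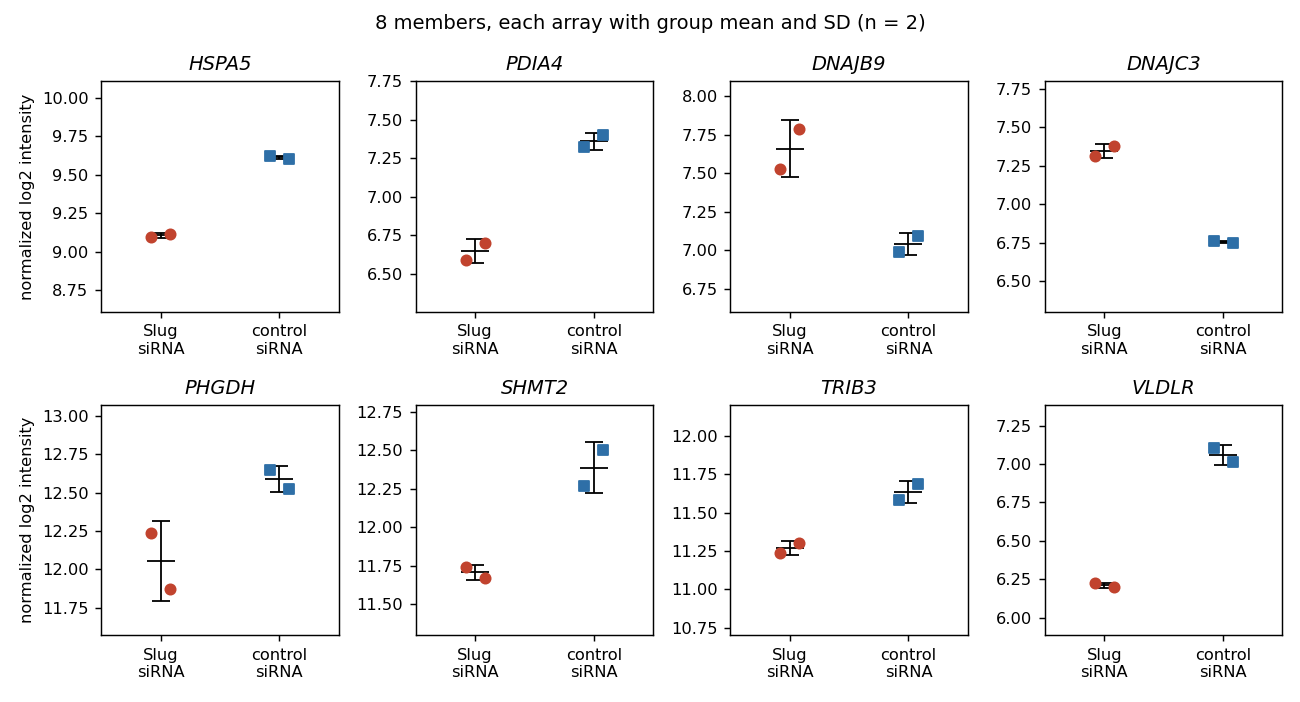
Normalized log2 intensity of 8 members on each array, with Slug siRNA on the left and control siRNA on the right of each panel; bars give the group mean and SD (n = 2), and every vertical axis spans the same range. All 8 are among the 12 members whose groups did not overlap (42.9%, against 45.1% of all genes), so their lack of overlap follows from the choice. DNAJB9 and DNAJC3 are higher and the other 6 lower with Slug siRNA, and no gene passed limma's adjusted threshold.

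For the 10 amino acid genes driven by ATF4, the median log2 fold change was -0.03, against 0.01 over all genes, with 5 genes positive and 5 negative. No gene was higher without overlap (23.6% of all genes were), and 3 of the 10 were lower, PHGDH, SHMT2 and MTHFD2 (30%, against 21.5% of all genes). PHGDH, the first enzyme of serine synthesis, read 12.24 and 11.87 with Slug siRNA, against 12.65 and 12.53 with control siRNA, a 1.45-fold lower mean (log2 fold change -0.53, SE 0.19, limma adjusted p = 0.303). Without Slug siRNA replicate 2 its log2 fold change was -0.34. SHMT2, the mitochondrial enzyme that converts serine to glycine, read 11.74 and 11.67 with Slug siRNA, against 12.27 and 12.50 with control siRNA. It was 1.60-fold lower with Slug siRNA (log2 fold change -0.68, SE 0.17, 95% interval -1.08 to -0.28, limma adjusted p = 0.176).

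MTHFD2, the mitochondrial folate enzyme downstream of SHMT2, read 10.34 and 10.43 with Slug siRNA, against 10.72 and 10.62 with control siRNA, a log2 fold change of -0.28 (95% interval -0.66 to 0.10). PSAT1 and PSPH, the later enzymes of serine synthesis, had overlapping arrays. PSAT1, the aminotransferase, read 9.96 and 10.24 with Slug siRNA, against 9.85 and 9.98 with control siRNA, a log2 fold change of 0.18. PSPH, the phosphatase that releases serine, read 8.49 and 8.17 with Slug siRNA, against 8.69 and 8.34 with control siRNA, a log2 fold change of -0.19. The PSPH probes disagreed in size. The other one read 7.25 and 7.02 with Slug siRNA, against 7.76 and 7.70 with control siRNA, without overlap. Its log2 fold change was -0.59 (limma unadjusted p = 0.00939, adjusted p = 0.227). The counts of lower members thus depend on the probe read for PSPH.

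Asparagine synthetase, amino acid carriers and tRNA charging showed group means that lay close together. ASNS, a textbook ATF4 target, read 10.68 and 10.65 with Slug siRNA, against 10.54 and 10.77 with control siRNA, a log2 fold change of 0.01 (95% interval -0.39 to 0.40). Its upstream window holds the core of the C/EBP-ATF response element, TGATGNAA, which was searched on both strands. It was found in 3 of the 37 member windows (8.11%, those of ASNS, ATF3 and SLC3A2), against 3.62% of all windows. The stretch around it is given on the strand of the gene, with the core in capitals.
ASNS (chr7:97872461-97872484, minus strand): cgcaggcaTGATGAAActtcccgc

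The carrier SLC7A5, which imports large neutral amino acids, stood at 0.01 (95% interval -0.36 to 0.38), and its heavy chain SLC3A2 also at 0.01 (95% interval -0.46 to 0.47). SLC7A11, which imports cystine with the same heavy chain, read 4.76 and 5.44 with Slug siRNA, against 4.50 and 5.49 with control siRNA. Its replicate 2 was above background in both groups and its replicate 1 in neither, so the difference between replicates (0.68 with Slug siRNA and 1.00 with control siRNA) exceeded that between groups (0.10). WARS1, the tryptophanyl-tRNA synthetase, stood at -0.06, with arrays of 9.07 and 9.30 with Slug siRNA, against 9.12 and 9.38 with control siRNA. The second probes of ASNS, SLC3A2 and WARS1 gave -0.16, -0.04 and 0.04.

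Among the 9 stress regulators and effectors, 7 had a negative log2 fold change (77.8%, against 48.4% of all genes), and the median was -0.12. The 7 include ATF4 (-0.01), CEBPB (-0.02) and NUPR1 (-0.34), each of which changed sign with some single array left out. No gene of this group was higher without overlap (23.6% of all genes were), and 4 were lower, XBP1, DDIT3, TRIB3 and VLDLR (44.4%, against 21.5% of all genes). ATF4 itself read 13.14 and 13.04 with Slug siRNA, against 13.19 and 13.02 with control siRNA, a log2 fold change of -0.01 (95% interval -0.40 to 0.38). The other 2 kept probes of ATF4 gave -0.15 and -8e-04. XBP1 read 10.30 and 10.38 with Slug siRNA, against 10.51 and 10.42 with control siRNA, a log2 fold change of -0.12 (95% interval -0.50 to 0.25), and its second probe gave -0.13. The probes are not known here to separate spliced from unspliced XBP1.

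DDIT3, which encodes the pro-apoptotic factor CHOP, read 5.89 and 5.94 with Slug siRNA, against 6.26 and 6.16 with control siRNA (log2 fold change -0.29, 95% interval -0.67 to 0.08). TRIB3, a pseudokinase induced by ATF4 and CHOP that feeds back on ATF4, read 11.24 and 11.30 with Slug siRNA, against 11.58 and 11.68 with control siRNA (log2 fold change -0.36, 95% interval -0.74 to 0.01). In both genes the 2 arrays of each group lay close together and the groups stood apart, and neither passed the threshold (limma adjusted p = 0.515 and 0.411). The transcription factor gene CEBPB stood at -0.02 (95% interval -0.44 to 0.39) and ATF3, a repressor induced by many stresses, at 0.10 (95% interval -0.32 to 0.52), with overlapping arrays in each.

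VLDLR had the lowest log2 fold change of all members. It encodes the very low density lipoprotein receptor, a lipoprotein uptake receptor known as a target of the PERK and ATF4 branch. Its log2 intensity was 6.22 and 6.20 with Slug siRNA, against 7.10 and 7.01 with control siRNA. The mean was 1.80-fold lower with Slug siRNA (log2 fold change -0.85, SE 0.16, 95% interval -1.22 to -0.47, limma adjusted p = 0.0928), and 137 of the 11200 genes stood at least as low. Its second probe was not above background on any array.

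SESN2 and NUPR1 differed more between replicates of the control siRNA group than between groups. SESN2, a leucine sensor that restrains mTORC1, read 5.67 and 5.68 with Slug siRNA, against 4.91 and 5.82 with control siRNA, and was not above background in control siRNA replicate 1. Its log2 fold change of 0.32 was -0.14 without that array, and that of NUPR1, -0.34 over all arrays, was 0.05 without it. NUPR1, a small chromatin protein of the stress response, read 8.50 and 7.92 with Slug siRNA, against 8.95 and 8.16 with control siRNA. Replicate 2 was lower than replicate 1 in both groups (by a log2 difference of -0.59 with Slug siRNA and -0.79 with control siRNA). The second probe of NUPR1 read 7.39 and 7.05 with Slug siRNA, against 7.92 and 7.39 with control siRNA. Its log2 fold change was -0.43, with overlapping arrays.

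**Figure D3:**
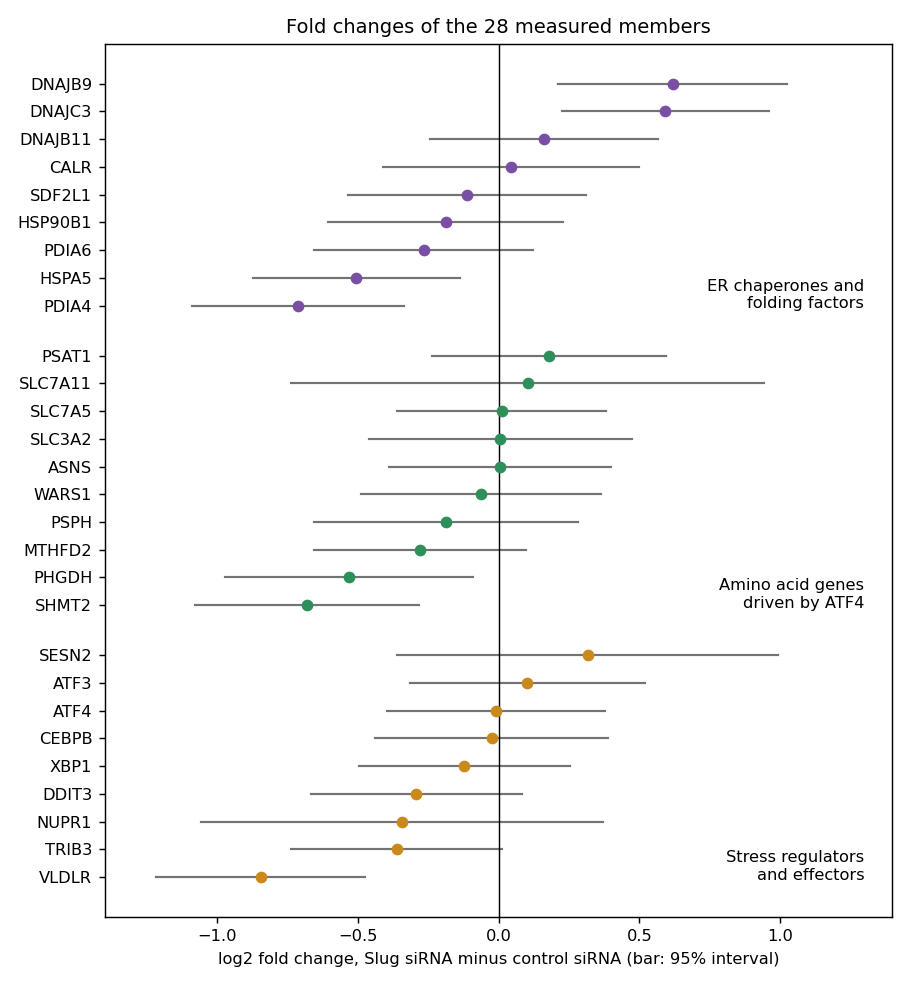
Log2 fold change of each of the 28 members, Slug siRNA minus control siRNA, with its 95% interval from the limma fit, grouped by role. The interval lies above 0 for DNAJB9 and DNAJC3, below 0 for HSPA5, PDIA4, PHGDH, SHMT2 and VLDLR, and spans 0 for the other 21 genes; these intervals are not adjusted for the number of genes tested.

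The processing moved some of these calls and sizes. SHMT2 passed limma's adjusted threshold with no background correction (adjusted p = 0.0459), with an offset of 50 (0.0474) and with an intensity trend in the prior variance (0.0217), and over all alternatives its adjusted p ranged up to 0.488. VLDLR passed with an offset of 50 (limma adjusted p = 0.0452) and with the replicate number as a further term (0.0331). With the authors' values without a pseudocount its adjusted p was 0.224. PDIA4 passed only with the replicate number as a further term (limma adjusted p = 0.0466). When background correction was left out, log2 fold changes lay nearer to 0 for VLDLR (-0.43), PDIA4 (-0.41), DNAJB9 (0.39) and DNAJC3 (0.34). For HSPA5, PDIA4, DNAJB9, DNAJC3, PHGDH, SHMT2 and VLDLR the sign was the same in all 13 alternatives.

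Other genes of these pathways were read from lists chosen by role. Among the sensors and their switches, 12 were measured, none passed limma's adjusted threshold, and 1 was lower (8.33%) and 0 higher at an unadjusted p under 0.05, against 6.87% and 6.18% of all genes. That gene was EIF2AK3, which encodes PERK. It read 6.30 and 6.00 with Slug siRNA, against 6.57 and 6.78 with control siRNA (log2 fold change -0.53, SE 0.18, adjusted p = 0.301). EIF2AK4, which encodes GCN2, stood at -0.34 (95% interval -0.75 to 0.06) and ATF6 at 0.19 (95% interval -0.20 to 0.58). MBTPS2, the protease that makes the second cut in ATF6, stood at 0.38 (adjusted p = 0.437), and its other probe gave 0.20. ERN1, which encodes IRE1, was not above background on any array.

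Of 21 other ER folding genes, 0 passed the adjusted threshold and 2 were lower at an unadjusted p under 0.05 (9.52%, against 6.87% of all genes), TXNDC5, a disulfide isomerase (-0.46), and MANF, a secreted BiP cofactor (-0.39). The second probe of TXNDC5 gave -0.24, and the median of the list was -0.09. Of 15 genes of ER-associated degradation, 2 were lower (13.3%) and 1 higher (6.67%) at that level, against 6.87% and 6.18% of all genes, and the median was 0.10. NPLOC4, the ubiquitin-binding partner of the extractor p97, read 6.92 and 6.94 with Slug siRNA, against 7.85 and 8.31 with control siRNA (log2 fold change -1.15, limma adjusted p = 0.0819). EDEM1, a lectin of glycoprotein degradation raised by XBP1, stood at -0.47, and EDEM2 was the higher gene (0.40, named after its value was seen). Genes of ER translocation and export had a median of 0.12 over 18 genes, 14 of them positive and 4 negative (22.2%, against 48.4% of all genes). For each array, the list's median deviation from the gene means over the 4 arrays was also taken. It was 1e-04 and 0.14 with Slug siRNA, against -0.12 and 0.04 with control siRNA, so the groups overlapped. The coat protein gene SEC24D stood at -0.62 and the signal peptidase subunit gene SPCS3 at 0.49. They were the only genes of the list with an unadjusted limma p under 0.05 (5.56% in each direction, near the shares of all genes). Another probe of SPCS3 gave 0.25.

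In a list of 19 other known ATF4 targets, 14 had a negative log2 fold change (73.7%, against 48.4% of all genes), with a median of -0.17. In 6 of them (31.6%) the unadjusted limma p was under 0.05 with a lower level in Slug siRNA, against 6.87% of all genes, and 0 were higher at that level. RHOQ, a small GTPase gene, stood lowest at -1.20 (adjusted p = 0.0656), although another of its probes gave -0.34. PYCR1, the last enzyme of proline synthesis, read 7.39 and 7.38 with Slug siRNA, against 7.81 and 8.04 with control siRNA, a log2 fold change of -0.54 (adjusted p = 0.263), but its second probe gave 0.36. Neither of these other probes had an unadjusted limma p under 0.05 (0.112 for RHOQ and 0.123 for PYCR1). The count of 6 thus depends on the probe read for RHOQ and PYCR1. The other 4, named after their values were seen, were STC2 (-0.54), a secreted glycoprotein gene, ALDH18A1 (-0.49), the first enzyme of proline synthesis, the glutamine carrier gene SLC1A5 (-0.41) and the aspartate aminotransferase gene GOT1 (-0.41). The other aminoacyl-tRNA synthetases had a median of -0.03 over 17 genes. AARS1, which charges alanine, read 11.07 on both Slug siRNA arrays, against 11.66 and 11.71 with control siRNA (log2 fold change -0.62, adjusted p = 0.186), and RARS1, which charges arginine, stood at 0.26 but at 0.06 without Slug siRNA replicate 2 and 0.08 without control siRNA replicate 1.

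Lists outside the ER gave a measure of chaperones in other compartments. Mitochondrial chaperones and proteases had a median of -0.06 over 11 genes, and 0 passed an unadjusted p under 0.05 in limma. LONP1 and SPG7, both proteases of mitochondrial protein quality control, stood at -0.24 each, but SPG7 stood at 0.01 without Slug siRNA replicate 2 and LONP1 at -0.07 without control siRNA replicate 2. Cytosolic heat shock genes had a median of -0.14 over 16 genes, with 3 lower (18.8%) and 1 higher (6.25%) at an unadjusted p under 0.05, against 6.87% and 6.18% of all genes. CRYAB, a small heat shock protein gene, was the higher one (0.56, limma adjusted p = 0.268). The lower ones were HSPA6 and, named after their values were seen, HSPA1A and HSP90AA1 (-0.41 each). HSPA6, a strictly inducible Hsp70, was above background on 0 of 2 Slug siRNA arrays and 2 of 2 control siRNA arrays, and so was kept through the control siRNA group alone, which makes its place in that count no support for a difference. HSPA6 had measured means of 4.68 with Slug siRNA and 5.30 with control siRNA. With the lowest detected signal of each Slug siRNA array as the bound, the control siRNA mean was 1.29-fold higher. That value has no error and is not a firm minimum. Without background correction the log2 fold change of HSPA6 was -0.20, against -0.63 with it. RHOQ, NPLOC4 and AARS1 passed limma's adjusted threshold under some alternatives, with adjusted p-values from 0.00703 to 0.224 for RHOQ, 0.0202 to 0.231 for NPLOC4 and 0.0314 to 0.508 for AARS1. With the mean over its probes, PYCR1 stood at -0.09. Whether the member groups differ from these lists was not tested.

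**Figure D4:**
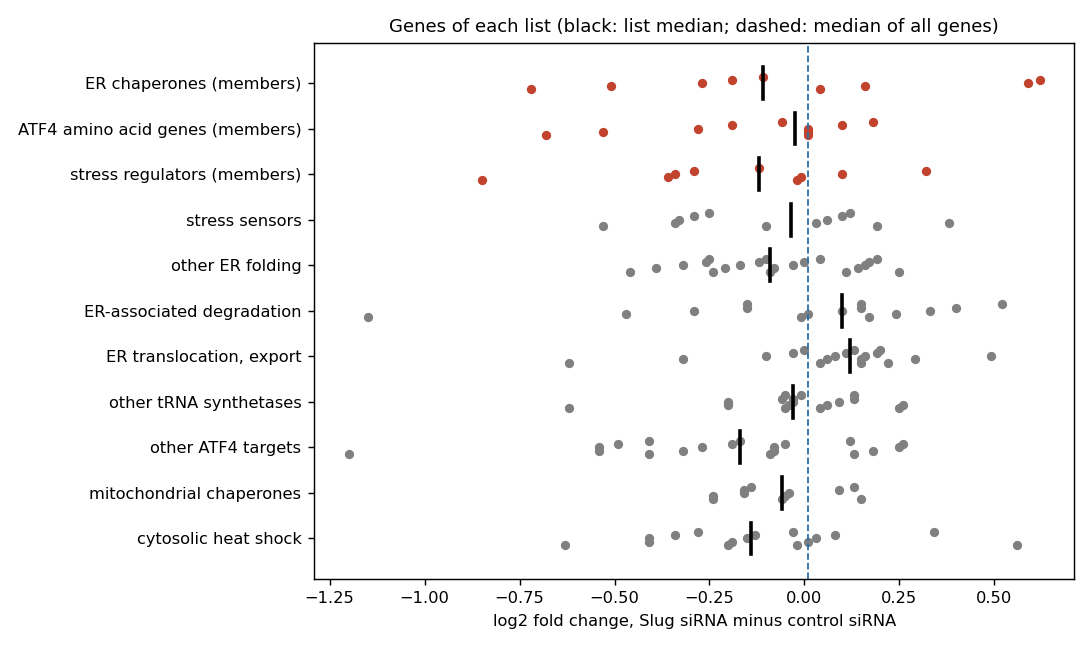
Log2 fold change, Slug siRNA minus control siRNA, of every measured gene in the 3 member groups (coloured points) and in 8 lists of related genes (grey points), with the list median as a black bar and the median of all 11200 genes as a dashed line. The medians lie between -0.17 (other ATF4 targets) and 0.12 (ER translocation and export), and the ER chaperone members spread from -0.71 to 0.62.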

How the data were processed

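Each probe's mean bead intensity was taken from the deposited table, which is linear and not normalized per the file headers. The deposited detection p-value ranks a probe among the negative controls of its array, and the deposited number of beads is a count per probe. The table of normalized intensities that the authors deposited was an alternative only, and its background step is not given in the sources used here. Another 8 per-sample columns were not used. In R 4.3.3 with limma 3.58.1, signals were background-corrected by normexp from the detection p-values (offset 16), quantile normalized and put on a log2 scale. Of 47323 probes, 19446 were kept, and 14875 of these had 1 symbol. Groups were compared with lmFit and eBayes, group as the only term (2 residual and 5.11 prior degrees of freedom), with two-sided p-values adjusted by Benjamini-Hochberg across the kept probes. Dim probes understate fold changes because of the offset. Between 39.8% and 40.8% of probes were detected per array, and the median bead error was 3.57% of the signal. The number of arrays limits the precision. The procedure was tested on data simulated under the model of the fit, with arrays drawn independently. Deviations of same-numbered arrays correlated at 0.36 in the real data, so the simulation cannot show how well the model holds for these arrays. Members and lists were chosen with earlier results of these data known. All members, SNAI2 and 4 sensors were named whatever their values, and from each other list up to 4 genes past the threshold or else the 2 with the lowest p. Figures used matplotlib 3.10.9.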

Additional observations from a re-analysis of the deposited data

How the results depend on the processing

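The number of genes past limma's adjusted threshold, 13, depended strongly on the processing. It was 158 with no background correction, 217 with an offset of 50, 34 with median scaling, 216 with an intensity trend in the prior, 3 with the authors' values plus 16, and 0 with the authors' values without a pseudocount or with no filter on dim probes. The members called numbered 0, but 1 with no background correction (SHMT2), 2 with an offset of 50 (SHMT2 and VLDLR) and 1 with the intensity trend (SHMT2). The replicate numbers are not stated to mark a shared day. Deviations of the same-numbered arrays correlated at 0.36 across probes, and with the replicate block 361 genes and 2 members (PDIA4 and VLDLR, adjusted p = 0.0466 and 0.0331) passed. With 1 array left out in turn, 0 to 17 genes and 0 members passed. The count was 0 with control siRNA replicate 1 left out, and 4 with Slug siRNA replicate 1 left out. The median log2 fold change then ranged from -0.14 to 0.05 for ER chaperones (0.05 without control siRNA replicate 2), from -0.20 to 0.05 for amino acid genes (-0.20 without control siRNA replicate 1) and from -0.17 to -0.05 for stress regulators. Single genes whose log2 fold change exceeded its SE, over all arrays or under the alternative, changed sign only when 1 array was left out, with ranges of -0.40 to 0.61 for SLC7A11, -0.14 to 0.78 for SESN2, -0.73 to 0.05 for NUPR1 and -0.49 to 0.01 for SPG7. Values within their SE also changed sign, as for CALR (-0.14 to 0.23), SDF2L1 (-0.29 to 0.05) and SLC3A2 (-0.21 to 0.22). The cause was not tested. Of 2 arrays a group, each fold change rests on few values, and dim members such as SLC7A11 and SESN2 lie near background.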
